A study of Mus musculus with 2 samples.

Results

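Dkk2, Dkk3, Vwc2, Sostdc1, Bmp4, Bmp5, Bmp6, Bmpr1a, Bmpr1b and Sfrp1 are genes of bone morphogenetic protein (BMP) and Wnt signalling, and their RNA levels were described across the cell types of mouse celiac and superior mesenteric ganglia. These are the sympathetic ganglia that lie in front of the aorta and send axons to the abdominal organs. The 10 genes, out of 32183 counted, were chosen by their RNA levels per cell type in these same libraries, so those levels are given as a description and carry no test. All 10 were found in both libraries.

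BMPs are secreted ligands that bind paired type I and type II receptor kinases and act through SMAD proteins. Wnts are secreted ligands that bind Frizzled receptors with the co-receptors Lrp5 and Lrp6, and in the canonical branch they stabilise beta-catenin. Both pathways are held in check outside the cell by secreted antagonists, and BMPs made by the dorsal aorta are known to start noradrenergic differentiation of sympathetic precursors in the embryo.

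The data were 2 single-cell libraries of 1 group, each a suspension of digested and triturated ganglia profiled with 10x Genomics 3′ chemistry. Mice of both sexes in equal numbers, aged 7 to 8 weeks and 20 in all, were used; no treatment is named in the labels, and the sources used here do not give the genotype, the strain or the animals behind each library. The comparisons are therefore between cell classes of the same suspensions. The p-values rest on the spread between these libraries, drawn largely or wholly from all genes, and this spread may be technical. Library 1 held 94521010 unique molecular identifiers (UMIs, counted molecules) and library 2 held 95235439, with a median of 6483 and 6498 UMIs per barcode. After 564 and 624 doublets were removed, 12030 and 11655 cells were described. The libraries shared 64 barcodes.

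Cell classes were set on one random part of each cell's UMIs with the 10 genes and 127 other pathway genes left out, and levels were taken from the other part. The unit of level is CPM, the gene's UMIs per 1000000 UMIs of its class, and a pair of values gives library 1 and then library 2. A count of UMIs beside a level, 0 included, is of that part. Classes are said to overlap where their 2-library ranges or their 95% counting intervals do. The 14 classes included satellite glia, which wrap the neuronal somata (2685 and 2591 cells), non-myelinating Schwann cells (1987 and 1848), fibroblasts (2286 and 2328), perineurial or epineurial cells, which form the sheath of the nerve and ganglion (720 and 634), blood endothelial cells (976 and 881) and mural cells, the smooth muscle cells and pericytes of the vessel wall (616 and 614). The typed neurons were few but deep: 70 and 62 Rxfp1-rich neurons, with a median of 22670 and 21082 UMIs, and 65 and 67 Shox2-rich neurons, with 18721 and 21736 UMIs. The 15 neuron markers summed to 23173 and 24852 CPM in Rxfp1-rich neurons and to 19189 and 20713 CPM in Shox2-rich neurons, while the 9 satellite glia markers summed to 162 and 144 CPM and to 300.3 and 185 CPM. The noradrenergic markers were a small part of these sums. Th averaged 246 CPM in Rxfp1-rich and 298 CPM in Shox2-rich neurons, and Dbh averaged 386 CPM and 473 CPM. A chromaffin cell list of 3 genes summed to 32.7 and 66.7 CPM in Rxfp1-rich and to 279 and 356 CPM in Shox2-rich neurons, with Penk at 0 in both. The nuclear RNA Malat1 took 82031 and 80346 CPM in Rxfp1-rich and 69171 and 75373 CPM in Shox2-rich neurons. Larger numbers of neuron-like cells were kept apart from these types: 5 clusters with low UMI counts or led by markers of other cells, the largest with 393 and 360 cells, and 1 untyped cluster with 178 and 182 cells. In the part that set the classes, the untyped cluster had 903 and 953 CPM of Th and 1578 and 1421 CPM of Dbh, above both types. Each of the 10 genes could also take reads from introns, since the sources used here do not say whether introns were counted, and levels are compared between classes for 1 gene at a time.

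The promoters of 3 of the 4 genes that differed clearly between the neuron types are printed for the neuron results that follow. The fourth, Bmpr1b, had 3 RefSeq starts, which these counts cannot tell apart, so none is printed; the window of the first held 2 overlapping TATA boxes and a CCAAT box, and the other two held none of the motifs below. RefSeq entries on GRCm38.p6 were matched for 7 of the 10 genes, and the 250 bases before the start are shown for Dkk2 (chr3:132085042-132085291, plus strand) and Bmp4 (chr14:46390670-46390919, minus strand), both higher in Rxfp1-rich neurons, and for Vwc2 (chr11:11113766-11114015, plus strand), higher in Shox2-rich neurons. Capitals mark matches to any of 5 motifs searched on both strands, and no match overlaps another in these windows.
Dkk2: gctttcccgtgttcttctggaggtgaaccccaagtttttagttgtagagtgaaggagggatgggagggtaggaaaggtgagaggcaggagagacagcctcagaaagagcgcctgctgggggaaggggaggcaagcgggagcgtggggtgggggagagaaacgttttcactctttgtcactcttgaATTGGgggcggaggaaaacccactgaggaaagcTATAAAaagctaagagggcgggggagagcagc
Bmp4: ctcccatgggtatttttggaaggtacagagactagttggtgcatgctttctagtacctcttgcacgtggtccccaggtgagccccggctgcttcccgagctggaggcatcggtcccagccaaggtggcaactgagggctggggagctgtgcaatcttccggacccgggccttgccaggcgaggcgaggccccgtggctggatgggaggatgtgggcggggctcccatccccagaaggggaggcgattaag
Vwc2: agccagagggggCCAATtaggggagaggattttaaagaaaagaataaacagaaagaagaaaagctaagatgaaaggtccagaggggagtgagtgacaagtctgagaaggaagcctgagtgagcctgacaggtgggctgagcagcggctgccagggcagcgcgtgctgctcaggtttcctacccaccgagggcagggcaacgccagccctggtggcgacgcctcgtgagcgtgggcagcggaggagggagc
The motifs were the TATA box (TATAAA), the CCAAT box (CCAAT), a BMP-responsive SMAD box (GGCGCC), a TCF/LEF box (CTTTGA) and a homeodomain box (TAATTA). The Dkk2 window held a TATA box 32 to 27 bases before the start on the plus strand and a CCAAT box 65 to 61 bases before it on the minus strand. The Vwc2 window held a CCAAT box 238 to 234 bases before the start, and the Bmp4 window held none of the 5. Among 32851 RefSeq promoter windows of the same length, 12.4% held the TATA box, 33.8% the CCAAT box, 9.59% the SMAD box, 13.8% the TCF/LEF box and 4.84% the homeodomain box. A match is a description of these letters and not of a bound factor.

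The levels of all 10 genes in every class are given first, by role: ligands, receptors, and then the secreted modulators of each pathway. The highest class was a different one for most genes, and typed neurons, glia, perineurial cells, fibroblasts and vessel cells each led at least 1 of them.

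**Figure D1:**
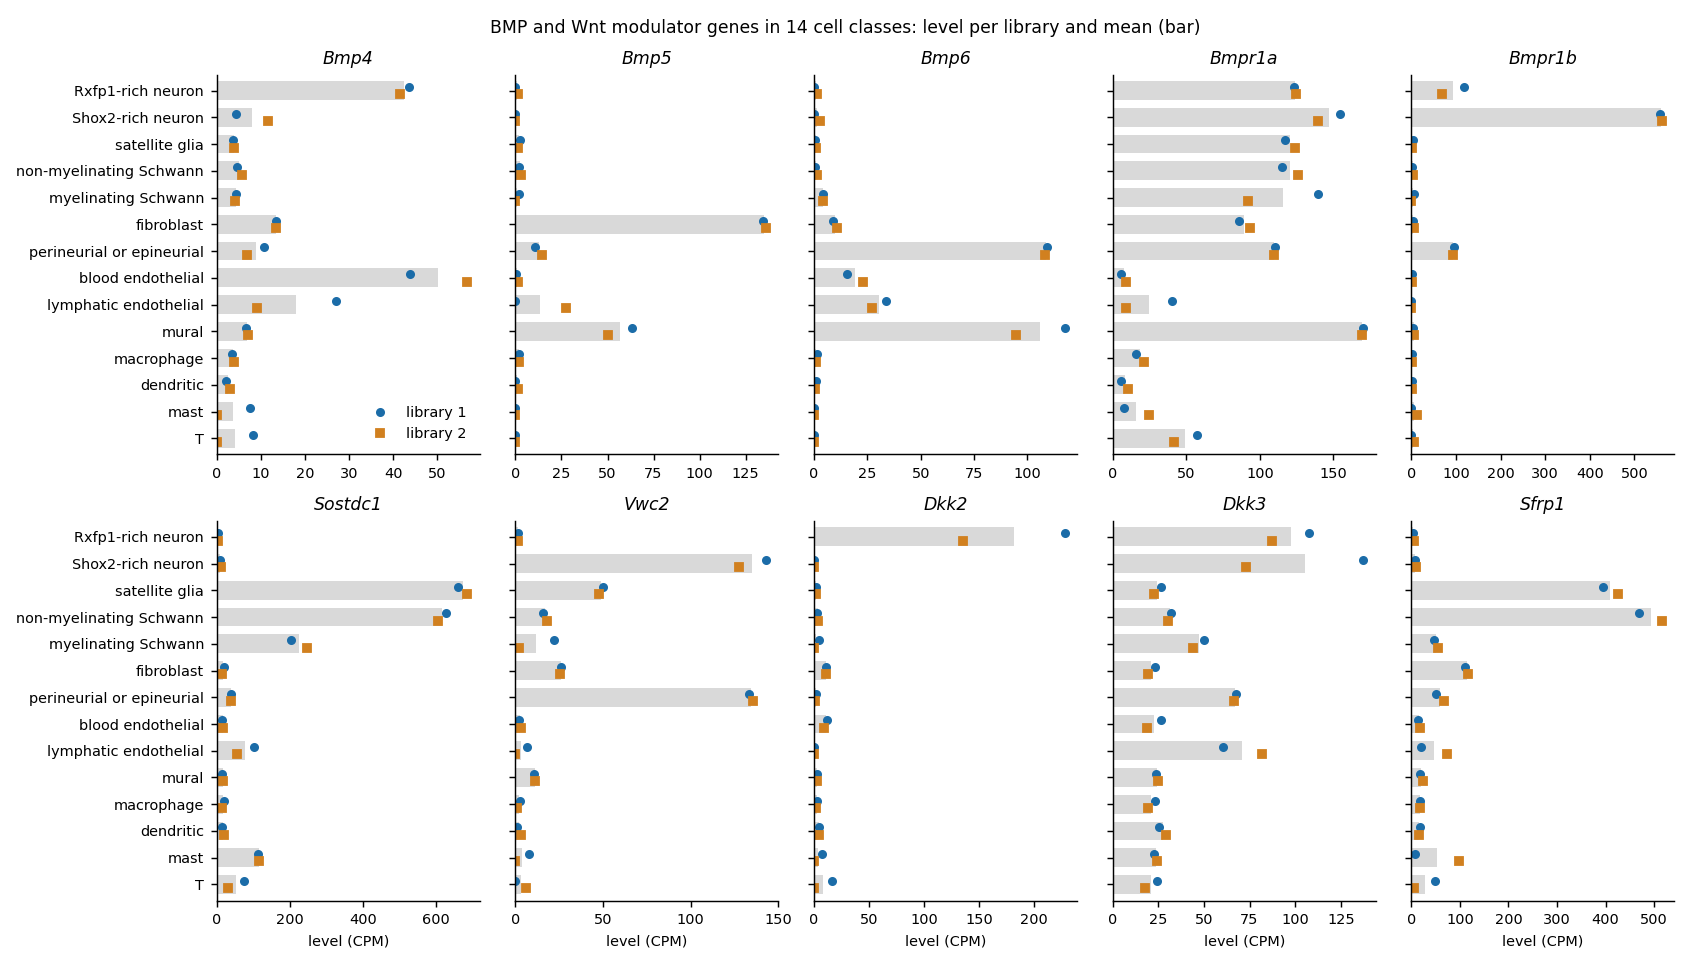
Level in CPM of each of the 10 genes (panels, each with its own axis from 0) in the 14 cell classes (rows), with circles for library 1, squares for library 2 and bars for their mean. Bmpr1a is spread over most classes, Dkk2 stands out in Rxfp1-rich neurons and Bmpr1b in Shox2-rich neurons, and Sostdc1 and Sfrp1 are highest in satellite glia and non-myelinating Schwann cells.

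Bmp4, a BMP ligand, was highest in blood endothelial cells, with 43.8 and 56.8 CPM, and in Rxfp1-rich neurons, with 43.6 and 41.5 CPM. The ranges of these classes overlapped. Fibroblasts had 13.3 and 13.5 CPM, and satellite glia had 3.71 and 3.94 CPM, near the 3.47 and 3.82 CPM of macrophages. Bmp4 lies at chr14:46383520-46390669 on the minus strand.

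Bmp5, another ligand, was a gene of fibroblasts and mural cells, with 134 and 136 CPM in fibroblasts and 63.5 and 50.4 CPM in mural cells, and these ranges did not overlap. Lymphatic endothelial cells, with 0 and 27.2 CPM on only 0 and 3 UMIs, and perineurial cells, with 10.7 and 14.5 CPM, followed and overlapped. Shox2-rich neurons, mast cells and T cells had no Bmp5 UMI in the part used for levels, and Rxfp1-rich neurons had 0 and 1.48 CPM. Over all UMIs, Shox2-rich neurons had 0 and 1 Bmp5 UMI.

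Bmp6, a ligand close to Bmp5 in sequence, was highest in perineurial cells, with 109.1 and 108.2 CPM, and in mural cells, with 117 and 94.7 CPM, which overlapped. Below these were lymphatic endothelial cells, at 33.7 and 27.2 CPM on only 5 and 3 UMIs, and blood endothelial cells, at 15.3 and 22.7 CPM, which overlapped. Fibroblasts, at 8.96 and 10.9 CPM, did not overlap blood endothelial cells. The cell types that carried Bmp5 and Bmp6 thus met in mural cells and parted in fibroblasts and perineurial cells.

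Bmpr1a, a type I BMP receptor kinase used in many tissues, was high in neurons, glia, stroma and mural cells alike. Mural cells had 170.2 and 169.2 CPM, Rxfp1-rich neurons 123 and 125 CPM, Shox2-rich neurons 154 and 139 CPM, and satellite glia 117 and 124 CPM. Blood endothelial cells had the lowest level, 5.94 and 8.78 CPM, and macrophages had 15.5 and 21.5 CPM. Blood endothelial cells were thus low in this receptor although they were the highest class for Bmp4. Of the other receptor genes, which were chosen here after their values were seen, Acvrl1, a type I receptor known from endothelium, averaged 100 CPM in blood endothelial cells, and Bmpr2, a type II receptor, averaged 399 CPM there.

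Bmpr1b, the type I receptor closest to Bmpr1a, was high in few classes. Shox2-rich neurons had 556 and 561 CPM (389 and 431 UMIs), or 559 ± 3.72 CPM (SD, n = 2 libraries). Next came perineurial cells with 95.3 and 92.6 CPM and Rxfp1-rich neurons with 119 and 68.2 CPM, which overlapped each other and lay below Shox2-rich neurons in both libraries. Every other class averaged at most 6.11 CPM. Bmpr1b is the longest of the 10 genes, spanning 332 kb at chr3:141837136-142169425.

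Sostdc1, a secreted protein known to bind BMPs and Wnt co-receptors, was a gene of the glia. Satellite glia had 661 and 687 CPM and non-myelinating Schwann cells 628 and 606 CPM, and myelinating Schwann cells had 203 and 247 CPM. Rxfp1-rich neurons had 3.63 and 2.97 CPM and Shox2-rich neurons 8.58 and 11.7 CPM, below the 19.7 and 14.8 CPM of macrophages, where 11.2% and 10.4% of cells had a UMI. Sostdc1 is the shortest of the 10 genes, at chr12:36314139-36318452 on the plus strand.

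Vwc2, a secreted modulator of BMPs with von Willebrand factor C domains, was highest in Shox2-rich neurons, with 143 and 128 CPM, and in perineurial cells, with 134 and 136 CPM, which overlapped. Satellite glia had 50.1 and 47.6 CPM, fibroblasts 26.0 and 25.7 CPM and non-myelinating Schwann cells 15.7 and 18.1 CPM, and no range of these overlapped the next. Rxfp1-rich neurons had 1 UMI in each library, or 1.21 and 1.48 CPM.

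Dkk2, a secreted Wnt antagonist that binds Lrp5 and Lrp6, was highest in Rxfp1-rich neurons, with 227 and 135 CPM (188 and 91 UMIs). The next classes, fibroblasts at 10.7 and 10.8 CPM and blood endothelial cells at 11.6 and 9.30 CPM, lay far below. Shox2-rich neurons had no Dkk2 UMI in either library.

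Dkk3, a relative of Dkk2 that is not known as a canonical Lrp6 ligand, was broader. Rxfp1-rich neurons had 108 and 87.5 CPM and Shox2-rich neurons 137 and 73.0 CPM, which overlapped. Perineurial cells had 67.4 and 66.5 CPM and non-myelinating Schwann cells 32.0 and 30.3 CPM. The 8 lowest classes averaged 21.1 to 27.3 CPM, and 15.8% and 15.3% of macrophages had a UMI. Dbh, a gene of noradrenergic neurons, was also counted in other classes. It averaged 211 CPM in macrophages and 337 CPM in T cells, against 386 CPM in Rxfp1-rich neurons. The part of RNA from other cells in such low levels, of Dkk3 or of the other genes, was not tested.

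Sfrp1, a secreted Frizzled-like protein that binds Wnts, was highest in non-myelinating Schwann cells, with 470 and 516 CPM, then in satellite glia, with 394 and 425 CPM, then in fibroblasts, with 111 and 117 CPM, and in perineurial cells, with 51.2 and 67.7 CPM, and no range of these overlapped another. Neurons averaged lowest, with 2.42 and 5.93 CPM in Rxfp1-rich and 7.15 and 9.12 CPM in Shox2-rich neurons. Sfrp1 and Sostdc1 were thus both high in the glia and low in the neurons that satellite glia wrap.

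The genes whose profile over the 14 classes was most like that of each of the 10 were sought among 17122 genes, as a description over classes that share libraries. Dkk2 was most like Ltk, a receptor tyrosine kinase, and Oprd1, the delta opioid receptor, with a Pearson r of 0.944 and 0.942, beside B020031H02Rik at 0.95. Sostdc1 was most like Gpr37l1 (0.982), Erbb3, the neuregulin receptor of Schwann cells (0.980), and Cmtm5 (0.976), and Sfrp1 was most like Matn2 (0.984), Aspa (0.977) and Acot1 (0.970). Bmp6 was most like Foxc1, a transcription factor of mural and mesenchymal cells (0.980), and Mustn1 (0.961), and Bmp5 was most like Foxs1 (0.982), Cpxm2 (0.971) and Steap4 (0.967). Bmpr1b was most like the unnamed transcripts Gm28729, 4921534H16Rik and Gm28876 (0.988, 0.981 and 0.964), Vwc2 like Slpi (0.904), Bmp4 like Fat4 (0.960), Bmpr1a like Mturn (0.921) and Dkk3 like 4930405A21Rik (0.940). The likest genes of Bmpr1b, Vwc2 and Dkk3 were scarce. In Shox2-rich neurons Gm28729 averaged 6.64, 4921534H16Rik 14.25, Gm28876 4.75, Slpi 7.17 and 4930405A21Rik 8.20 CPM. The floor of 3 counts was 4.29 and 3.91 CPM there, so these likenesses rest on few UMIs.

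Within the neurons, Rxfp1-rich cells held Dkk2 and Bmp4, and Shox2-rich cells held Bmpr1b and Vwc2, while Dkk3 and Bmpr1a overlapped between the types. Dkk2 was at least 53.0-fold higher in Rxfp1-rich neurons in library 1 and at least 34.5-fold higher in library 2, against a floor of 3 counts per library in Shox2-rich neurons (4.29 and 3.91 CPM). Bmp4 had 43.6 and 41.5 CPM in Rxfp1-rich neurons, against 4.29 and 11.7 CPM in Shox2-rich neurons (3 and 9 UMIs). The 2 types did not overlap for either gene.

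Bmpr1b had 119 and 68.2 CPM in Rxfp1-rich neurons, against 556 and 561 CPM in Shox2-rich neurons. For Vwc2, the level in Shox2-rich neurons was 101 times that in Rxfp1-rich neurons, with a counting interval of 27.7 to 842, since Rxfp1-rich neurons had 2 UMIs in all. The types did not overlap for these genes either, so a ligand and a Wnt antagonist lay on the Rxfp1-rich side and a receptor and a BMP modulator on the Shox2-rich side.

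**Figure D2:**
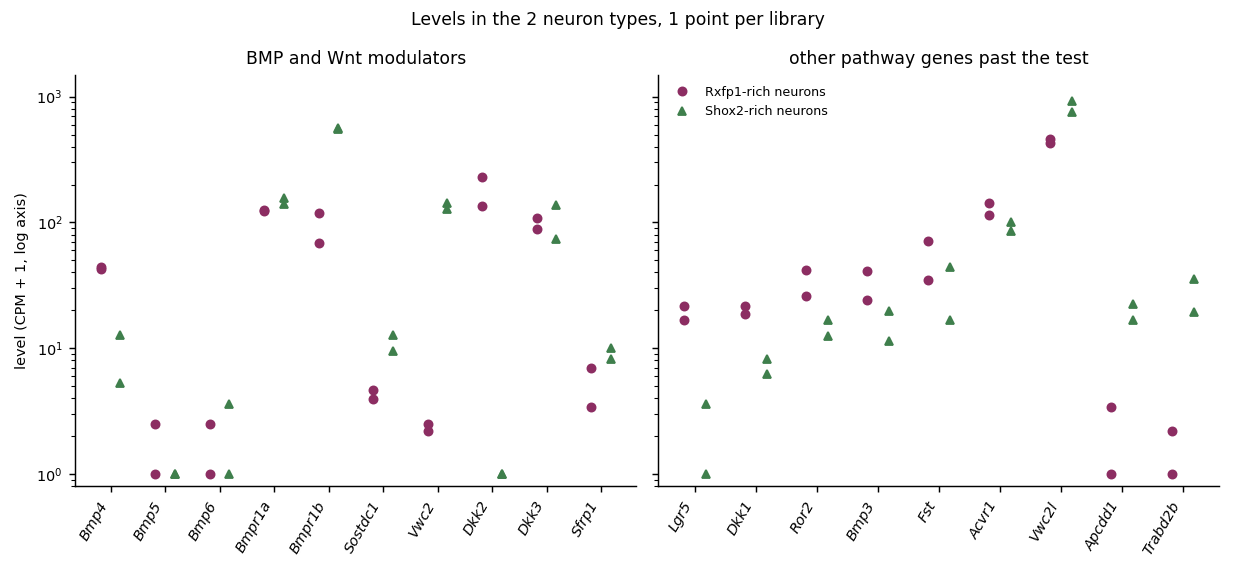
Level in CPM plus 1 on a log axis of the 10 genes (left) and of the other pathway genes that passed the test (right), with 1 point per library, for Rxfp1-rich neurons (circles) and Shox2-rich neurons (triangles). Dkk2 and Bmp4 points of Rxfp1-rich neurons lie above those of Shox2-rich neurons, and Bmpr1b and Vwc2 points lie below them.

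These levels were not shared evenly by the cells of a type. At least 1 Bmpr1b UMI was seen in 66.2% and 70.1% of Shox2-rich cells, where the same UMIs spread by depth alone would have reached 99.7% and 99.4% of them. A Dkk2 UMI was found in 52.9% and 51.6% of Rxfp1-rich neurons, where even spread would have reached 96.5% and 85.5%. The tenth of Rxfp1-rich neurons with most Dkk2 held 57.7% and 48.0% of its UMIs, and the highest cell had 42 and 25 UMIs. Thinned to 1500 UMIs per cell, 17.1% and 14.5% of Rxfp1-rich neurons had a Dkk2 UMI. In satellite glia, with a median of 6509 and 6587 UMIs, the share was 0.931% and 1.43% without thinning.

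Bmpr1b in Rxfp1-rich neurons was the most uneven of these: 34.3% and 30.6% of the cells had a UMI where even spread would have reached 86.2% and 71.8%, and the tenth with most held 73.1% and 78.4% of the UMIs. Vwc2 was detected in 66.2% and 68.7% of Shox2-rich cells, against 88.2% and 88.8% if evenly spread. By contrast, Bmpr1a was found in 91.4% and 87.1% of Rxfp1-rich neurons where even spread gives 91.0% and 85.0%, and Dkk3 in 81.4% and 74.2% where it gives 85.8% and 77.1%. In Shox2-rich neurons Dkk3 was found in 73.8% and 70.1%, against 88.9% and 77.9%. Bmp4 was found in 47.1% and 48.4% of Rxfp1-rich neurons, against 59.1% and 58.2%. Bmpr1a was thus close to even, and the gap was widest for Bmpr1b and Dkk2. A cell without a UMI may still hold the RNA, so these shares do not count the cells that express a gene.

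Within Shox2-rich neurons, Vwc2 and Bmpr1b tended to lie in the same cells: a Vwc2 UMI was found in 79.1% and 80.9% of cells with Bmpr1b and in 40.9% and 40.0% of cells without it. Within Rxfp1-rich neurons, a Bmp4 UMI was found in 51.4% and 40.6% of cells with Dkk2 and in 42.4% and 56.7% of cells without it, so the libraries went opposite ways. These shares are a description, and the part of depth, which the genes of a cell share, was not tested.

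**Figure D3:**
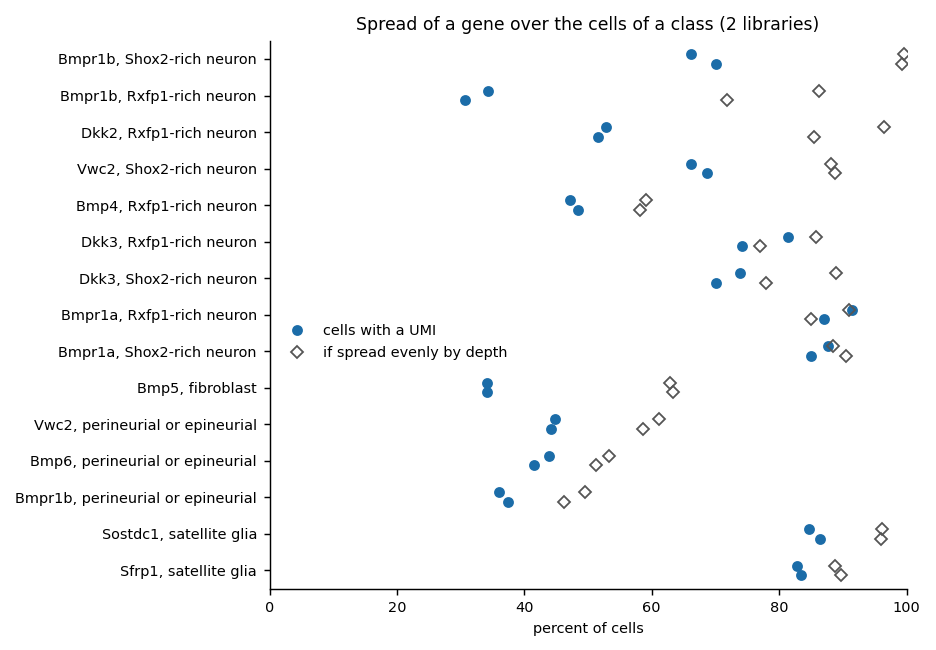
Percent of cells with at least 1 UMI (filled circles) and the percent that the same UMIs would reach if spread by depth alone (open diamonds), for pairs of a gene and a class (rows), with 1 mark of each kind per library. Circles lie far left of the diamonds for Bmpr1b and Dkk2 in neurons and for Bmp5 in fibroblasts, and beside them for Bmpr1a.

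Of the 127 other pathway genes, 43 were measured well enough for a test between the neuron types with edgeR's quasi-likelihood test, the library as a block and Benjamini-Hochberg adjustment over all 8900 genes. Higher in Rxfp1-rich neurons were 6 of the 43, where 6.37% of all genes were called higher, and lower were 3, where 5.17% were called lower and 11.5% either way. Without the library block 3 were higher. The median log2 fold change was 0.06 for the 43 genes and -0.01 for all genes. None of 11 SMAD transducers and BMP targets and none of 7 Wnt transducers and targets passed the threshold, an adjusted p of 0.05. In simulated sums of these types 54% of 2-fold changes were recovered, so a gene that missed the threshold may still differ. Of 17 listed Wnt inhibitors only 4 were tested, and of these 1 was higher and 2 were lower.

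Lgr5, a receptor for R-spondins that raise Wnt signalling, had 15.7 and 20.8 CPM in Rxfp1-rich neurons, against 0 and 2.61 CPM in Shox2-rich neurons (27 against 2 UMIs). Its ratio was 13.2 with a counting interval of 3.32 to 115, and edgeR gave a log2 fold change of 3.67 ± 0.81 (SE) and an adjusted p of 0.000131. Ror2, a receptor for Wnt5a, had 41.1 and 25.2 CPM against 11.4 and 15.6 CPM (log2 fold change 1.33 ± 0.38, adjusted p 0.00653, edgeR). Dkk1, the best known antagonist of Lrp6, had 20.6 and 17.8 CPM against 7.15 and 5.21 CPM (1.66 ± 0.56, adjusted p 0.0304, edgeR), on the same side as Dkk2. Bmp3, a BMP family member known to oppose other BMPs, rose by 1.16 ± 0.39 with an adjusted p of 0.0268 (edgeR), at 23.0 and 40.0 CPM against 18.6 and 10.4 CPM. The other 2 of the 6 were Fst, which encodes follistatin, and Acvr1, a type I receptor (0.90 ± 0.30 with an adjusted p of 0.0245 and 0.54 ± 0.19 with 0.0407, edgeR).

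Lower in Rxfp1-rich neurons was Vwc2l, the close relative of Vwc2, with 431 and 461 CPM against 759 and 931 CPM in Shox2-rich neurons (log2 fold change -0.86 ± 0.13, adjusted p 2.41e-09, edgeR). Unlike Vwc2, it was thus high in both types. The Wnt inhibitors Trabd2b, a protease that inactivates Wnts, and Apcdd1 were near absent from Rxfp1-rich neurons, with 1 UMI against 38 and with 2 UMIs against 27. Trabd2b was 38.9 times as high in Shox2-rich neurons, with a counting interval of 6.57 to 1576, and Apcdd1 13.8 times as high, with an interval of 3.47 to 120. DESeq2 called 1 of these 9 genes, Vwc2l. Dkk1 and Dkk2 were thus higher in Rxfp1-rich neurons, and Trabd2b and Apcdd1 in Shox2-rich neurons. Of 17 listed Wnt inhibitors only 4 passed the filter on low counts. Dkk1, Trabd2b and Apcdd1 passed it through the type where they were high, and Dkk2 carries no test. Their lying on both sides is therefore a description.

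Between typed neurons and satellite glia most genes differed. edgeR called 75.2% of the 14649 genes tested, 35.7% higher and 39.6% lower in neurons, and of 75 pathway genes it called 25 higher and 37 lower. The median log2 fold change was -0.72 for the 75 genes and -0.09 for all genes. Wnt receptors and co-receptors were lower in neurons in 12 of 16 cases and higher in 2. Fzd8 and Fzd1, Frizzled receptors, had 1 UMI each in typed neurons and were 110 and 65.4 times as high in CPM in satellite glia, with counting intervals of 19.7 to 4351 and 11.7 to 2587. Fzd6 had none in typed neurons, and satellite glia were at least 1.36-fold and 1.99-fold higher. Sfrp5, a relative of Sfrp1, had 11.8 and 8.32 CPM in typed neurons, against 663 and 631 CPM in satellite glia (log2 fold change -6.24 ± 0.14). It followed Sfrp1 in this comparison.

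Higher in neurons were Vwc2l, with 581 and 712 CPM against 5.98 and 4.98 CPM in satellite glia (log2 fold change 6.64 ± 0.12), and Smad9, a SMAD of the BMP branch, with 36.7 and 31.2 CPM against 1.96 and 2.70 CPM (3.62 ± 0.28). Vwc2l and Vwc2 differed here, since Vwc2 was also found in satellite glia at 50.1 and 47.6 CPM. Trabd2b and Ror2 were the other genes of largest rise, at 3.54 and 2.93 on the log2 scale.

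Among the glia, Sostdc1 and Sfrp1 were found in most cells. A Sostdc1 UMI was found in 84.7% and 86.4% of satellite glia and an Sfrp1 UMI in 82.8% and 83.5%, below the 96.1% and 95.9% and the 88.7% and 89.7% that even spread would give. Thinned to 1500 UMIs, 52.3% and 52.6% of satellite glia and 49.2% and 50.6% of non-myelinating Schwann cells held Sostdc1, against 2.36% and 2.5% of macrophages. The genes tended to be found together: Sfrp1 was in 86.0% and 86.3% of satellite glia with Sostdc1 and in 65.4% and 65.7% of those without it. The part of depth and cluster in this pairing was not tested.

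The level of Sostdc1 depended on the cluster within the glia. It had 782 and 816 CPM in the satellite glia cluster led by Fabp7 and 380.3 and 405 CPM in the cluster led by Gm31356. The Fabp7 cluster had a median of 9553 and 9610 UMIs per cell and 62500 and 66703 CPM of the nuclear RNA Malat1, and the Gm31356 cluster had 4505 and 4876.5 UMIs and 117610 and 124350 CPM of Malat1. Schwann cells showed the same split, with 797 and 754 CPM of Sostdc1 in the cluster led by Nrn1 and 343 and 404 CPM in that led by Car10. Malat1 stood at 59001 and 63910 CPM in the Nrn1 cluster and at 102530 and 104750 CPM in the Car10 cluster. The part of depth and nuclear RNA in these levels was not tested. Vwc2 had 48.0 and 46.2 CPM in the Fabp7 cluster and 58.2 and 53.5 CPM in the Gm31356 cluster, and these overlapped by their counting intervals.

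**Figure D4:**
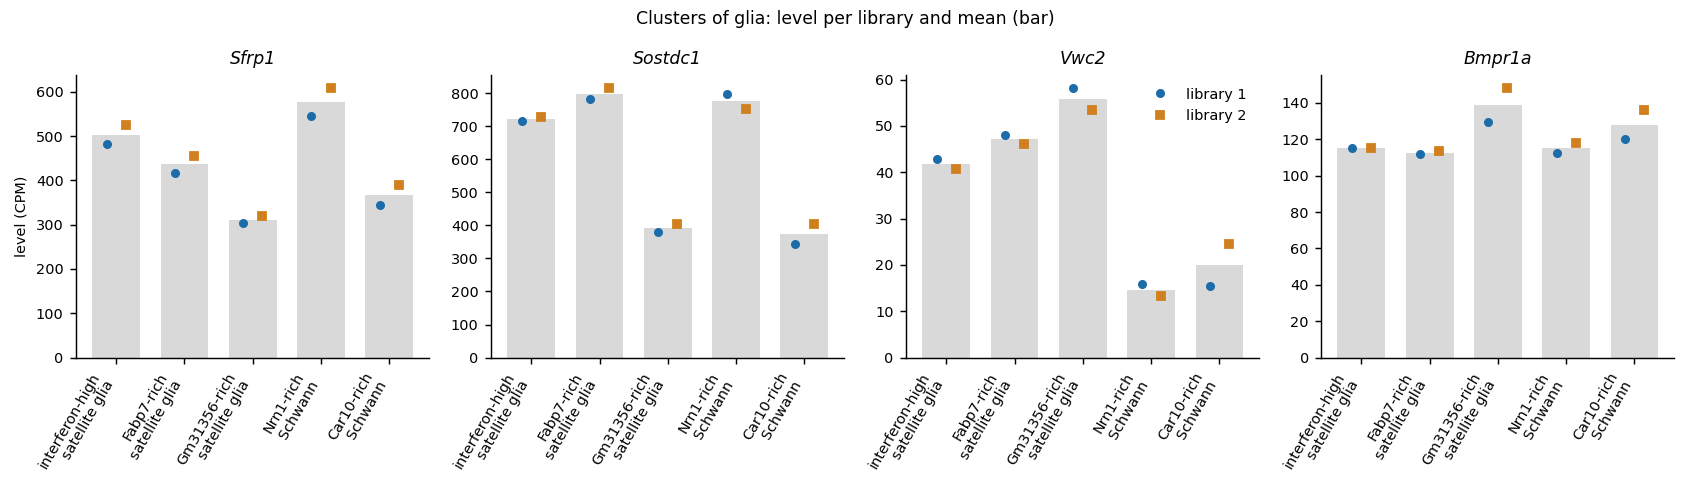
Level in CPM of Sfrp1, Sostdc1, Vwc2 and Bmpr1a (panels, each with its own axis from 0) in 3 clusters of satellite glia and 2 of Schwann cells, with circles for library 1, squares for library 2 and bars for their mean. Sostdc1 is lower in the Gm31356 and Car10 clusters than in the others, and Sfrp1 is highest in the Nrn1 cluster.

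Between satellite glia and non-myelinating Schwann cells, edgeR tested 76 pathway genes. Higher in satellite glia were 24, where 14.3% of all genes were called higher, and lower were 13, where 13.2% were called lower and 27.5% either way. Both medians were near 0 (0.03 for the pathway genes and -0.00 for all genes). Of 17 Wnt receptors and co-receptors, 8 were higher and 2 were lower, and of 9 Wnt inhibitors 3 went each way.

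Igfbp4, which binds insulin-like growth factors and is also known to block Frizzled 8 and Lrp6, had 476 and 446 CPM in satellite glia, against 176 and 148 CPM in non-myelinating Schwann cells (log2 fold change 1.55 ± 0.04). Lgr5 had 62.3 and 71.1 CPM against 32.9 and 30.7 CPM (1.11 ± 0.09), Sfrp5 663 and 631 CPM against 369 and 335 CPM (0.92 ± 0.04), and Fzd6 rose by 1.52 ± 0.43 with an adjusted p of 0.00253 by edgeR, a call lost with DESeq2. Sfrp5 was thus higher in satellite glia, whereas its relative Sfrp1 was higher in Schwann cells. Nkd1 and Nkd2, intracellular inhibitors and targets of Wnt signalling, fell by 2.45 ± 0.22 and by 2.05 ± 0.22, with Nkd1 at 2.68 and 3.21 CPM in satellite glia, against 16.5 and 16.7 CPM in Schwann cells. Chrdl1, a BMP antagonist, fell by 1.91 ± 0.30 and Fst by 1.05 ± 0.15 on the log2 scale.

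Interferon-high satellite glia (384 and 356 cells) were set against the other satellite glia, a contrast that the choice of the 10 genes did not use, so here the 10 genes carry their test. The 7 interferon genes that set this state summed to 4402 and 4417 CPM in interferon-high cells and to 252 and 255 CPM in the others. Sfrp1 was higher in interferon-high cells, with 481 and 526 CPM against 380 and 410 CPM (log2 fold change 0.39 ± 0.053, adjusted p 1.91e-11 by edgeR over 13120 genes). Sostdc1 had 717 and 729 CPM against 652 and 680 CPM (0.16 ± 0.046, adjusted p 0.0107 by edgeR), a call that was lost with DESeq2, without the library block, without the low-count filter and in cells with at least 5000 UMIs. Of the 10 genes, 7 passed the filter on low counts, and Bmp5, Bmp6 and Dkk2 did not. The other 5 tested missed the threshold: Vwc2 had a log2 fold change of -0.22 (adjusted p 0.519), Bmpr1a -0.04 (0.930), Bmp4 -0.16 (0.951), Dkk3 0.06 (0.95) and Bmpr1b 0.58 (0.754) by edgeR.

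The others are a mixture of the Fabp7 and Gm31356 clusters, which differed in depth. Sostdc1 in interferon-high cells lay between these clusters, below the 782 and 816 CPM of the Fabp7 cluster and above the 380.3 and 405 CPM of the Gm31356 cluster. Sfrp1, at 417 and 455 CPM in the Fabp7 cluster and 304 and 319 CPM in the Gm31356 cluster, was above both. Malat1 stood at 71854 and 77820 CPM in interferon-high cells and at 80358 and 85758 CPM in the others, and its part in the differences was not tested.

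Of all genes, 7.81% were called between these cells, 4.88% higher and 2.93% lower in interferon-high cells. Of 70 pathway genes tested, 2 were higher and 7 were lower. The median log2 fold change was -0.10 for the pathway genes and -0.00 for all genes. Lgr5 was lower, with 33.5 and 36.1 CPM in interferon-high cells, against 67.0 and 76.4 CPM in the others (adjusted p 8.45e-10, edgeR). Smad7, an inhibitory SMAD, had 5 UMIs against 119 (-1.87 ± 0.56, adjusted p 0.0137, edgeR), but with all UMIs its log2 fold change was -0.64 and the call was lost. Further down, Acvr2a, a type II receptor, and Tcf7l2, a partner of beta-catenin, fell by 0.56 ± 0.16 and by 0.41 ± 0.10. Lgr5 kept its call with DESeq2 and without the library block, and DESeq2 called 0 of the pathway genes higher and 2 lower. Higher were Fstl1, a follistatin-like secreted protein, at 161 and 170 CPM against 131 and 126 CPM (0.40 ± 0.08), and Fzd7 (0.67 ± 0.23, adjusted p 0.0490, edgeR).

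Outside the glia and neurons, the 10 genes divided the sheath, stroma and vessels, and more so at the level of clusters. Among fibroblasts, Bmp5 was highest in the cluster led by Dlk1, with 228 and 235 CPM, followed by the Fat3 cluster with 187 and 198 CPM, the Spp1 cluster with 117.3 and 116.9 CPM and the C7 cluster with 28.8 and 27.9 CPM. The Dlk1 and Fat3 clusters overlapped by their counting intervals, and the Spp1 and C7 clusters lay apart from these and from each other. The C7 cluster was instead the highest fibroblast cluster for Dkk2 (55.6 and 54.6 CPM, against at most 6.20 CPM in the others), for Vwc2 (90.0 and 93.8 CPM), for Sfrp1 (178 and 181 CPM) and for Bmp4 (31.9 and 26.7 CPM, which overlapped the Fat3 cluster).

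Fibroblasts as a class were uneven for Bmp5, found in 34.1% and 34.1% of cells where even spread would have reached 62.9% and 63.4%. The share in macrophages was 1.13% and 1.06%, at a median depth of 7925 and 7848 UMIs, where fibroblasts had 7953.5 and 8371. Dkk2 was found in 12.6% and 12.2% of C7 fibroblasts, where even spread gives 32.7% and 30.7%. Both shares lay below those of even spread.

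Among the blood endothelial cells that were typed, Bmp4 and Bmp6 lay in opposite kinds. Most of the 976 and 881 blood endothelial cells fell in clusters of no clear kind and are left out of these levels. Bmp4 had 88.9 and 126 CPM in venous cells (172 and 184 cells), 27.0 and 19.6 CPM in capillary cells (91 and 89 cells) and 7.94 and 6.08 CPM in arterial cells (38 and 40 cells). Bmp6 had 3.1 and 1.01 CPM in venous, 4.5 and 4.90 CPM in capillary and 206 and 286 CPM in arterial cells. Dkk2 was on the arterial side with Bmp6, at 9.30 and 10.1 CPM in venous, 0 and 4.90 CPM in capillary and 103 and 85.1 CPM in arterial cells.

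On the log2 scale with 1 CPM added, venous over arterial cells differed by 3.33 and 4.16 for Bmp4, by -5.66 and -7.15 for Bmp6 and by -3.34 and -2.95 for Dkk2. Arterial cells had 1 Bmp4 UMI in each library, against 86 and 124 in venous cells. Venous cells had 3 and 1 Bmp6 UMIs, against 26 and 47 in arterial cells. Dkk2 had 9 and 10 UMIs in venous and 13 and 14 in arterial cells. The floor of 3 counts was 23.8 and 18.2 CPM in arterial cells. The sizes of these differences are thus loosely known, but the counting intervals of venous and arterial cells did not overlap for these genes. The kinds had been set by other genes: 7 venous markers summed to 2811 and 2915 CPM in venous and to 39.7 and 91.2 CPM in arterial cells, and 7 arterial markers to 315 and 301 CPM and to 1739 and 1727 CPM. Bmpr1a had 0 CPM in arterial cells of both libraries (over all UMIs, 0 and 1 UMI), 3.1 and 0 CPM in venous cells and 4.5 and 4.90 CPM in capillary cells, so it was low in each of these typed kinds. Bmp6 was found in 28.9% and 35.0% of arterial cells, where even spread would have reached 66.6% and 76.5%.

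Mural cells were split likewise. Bmp6 had 181 and 144 CPM in the cluster led by Acta2, the smooth muscle actin, and 2.86 and 8.44 CPM in that led by Abcc9, a gene of pericytes. Bmp5 had 34.7 and 31.6 CPM in the Acta2 cluster and 116 and 83.0 CPM in the Abcc9 cluster. Bmpr1a was high in both, with 187 and 195 CPM and with 140.0 and 125 CPM. Vwc2, at 2.37 and 6.49 CPM in the Acta2 cluster and 25.7 and 19.7 CPM in the Abcc9 cluster, followed Bmp5. The mural level of Bmp6 was thus that of the Acta2 cluster, and Bmp5 was higher in the Abcc9 cluster.

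Perineurial or epineurial cells carried several of the 10 genes at once. Vwc2 was found in 44.9% and 44.2% of them, Bmp6 in 43.9% and 41.5% and Bmpr1b in 36.0% and 37.4%, below the 61.2% and 58.6%, 53.3% and 51.3%, and 49.5% and 46.3% of even spread. Bmp6 was found in 55.4% and 51.8% of the cells with Vwc2 and in 34.5% and 33.3% of those without it. Bmpr1b was in 46.7% and 46.4% of the cells with Vwc2 and in 27.2% and 30.2% of those without it. Both pairs were thus detected in the same cells more often in both libraries, and the part of depth in this was not tested.

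Between fibroblasts and perineurial cells, edgeR called 47.4% of 14082 genes, 25.1% higher and 22.3% lower in fibroblasts, and of 89 pathway genes it called 36 higher and 31 lower. The median log2 fold change was 0.13 for the pathway genes and 0.01 for all genes. Wnt inhibitors were higher in 6 of 10 cases and lower in 2, BMP antagonists and modulators were higher in 7 of 14 cases and lower in 4, and BMP ligands were higher in 3 of 4 cases and lower in 1. Sfrp2, a relative of Sfrp1, and the receptor Fzd9 had 142 and 58 UMIs in fibroblasts and none in perineurial cells, and DESeq2 called neither. Sfrp2 was thus at least 3.33-fold and 10.1-fold higher in fibroblasts against a floor of 3 counts per library. Bmper, a regulator of BMP binding, was higher by 4.69 ± 0.16.

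Perineurial cells were instead higher for Wnt10a, a Wnt ligand, with 0.656 and 0.203 CPM in fibroblasts against 42.6 and 45.5 CPM in perineurial cells (log2 fold change -6.51 ± 0.27), for Sfrp5 with 35.1 and 26.9 CPM against 902 and 876 CPM (-4.71 ± 0.06), for Bmp3 with 4.37 and 4.27 CPM against 102 and 109 CPM (-4.47 ± 0.14), and for Lgr6, with 1 UMI against 25 (80.7 times as high in perineurial cells, with a counting interval of 13.2 to 3315). Of the other pathway genes, chosen here after their values were seen, Wnt6 had 20.2 and 18.5 CPM in fibroblasts against 395 and 413 CPM in perineurial cells, Lrp4, a receptor that Sostdc1 is known to bind, 36.9 and 39.0 CPM against 163 and 150.3 CPM, and Nbl1, a BMP antagonist, 73.8 and 76.7 CPM against 699 and 704 CPM.

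Between fibroblasts and mural cells, edgeR called 50.3% of 13956 genes, 26.7% higher and 23.6% lower in fibroblasts. Of 88 pathway genes it called 32 higher and 24 lower, with a median log2 fold change of 0.02 for these and for all genes. BMP antagonists and modulators were higher in 9 of 14 cases and lower in 3, while SMAD transducers and BMP targets were lower in 6 of 13 cases and higher in none. Bmper had 107 and 111 CPM in fibroblasts, against 5.08 and 0 CPM in mural cells (5.53 ± 0.28), Wnt5a 48.9 and 48.6 CPM against 1.52 and 4.12 CPM (4.23 ± 0.26) and Sfrp4 34.0 and 26.0 CPM against 1.02 and 3.60 CPM (3.82 ± 0.33). Bmp7, a ligand close to Bmp5 and Bmp6, had 273 UMIs in fibroblasts and 2 in mural cells, a ratio of 28.1 with a counting interval of 7.71 to 233.

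Id1, a direct target of BMP signalling, had 17.7 and 14.7 CPM in fibroblasts, against 200.2 and 200.1 CPM in mural cells (log2 fold change -3.50 ± 0.10). Crim1, which is known to hold BMPs back in the cell that makes them, had 38.5 and 42.3 CPM against 329 and 316 CPM (-2.87 ± 0.08), and Wnt5b had 5.14 and 4.68 CPM against 81.3 and 66.4 CPM (-3.78 ± 0.16). Lgr6, another R-spondin receptor, had 1 UMI in fibroblasts and 51 in mural cells, and was 248 times as high in mural cells with a counting interval of 42.5 to 9966. Wnt5a and Wnt5b, which are close relatives, were thus on opposite sides.

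Between blood endothelial and mural cells, edgeR called 57.1% of 12877 genes, 29.4% higher and 27.7% lower in endothelial cells. Of 74 pathway genes it called 31 higher and 26 lower, with a median log2 fold change of 0.09 for these and -0.01 for all genes. SMAD transducers and BMP targets were higher in 9 of 12 cases and lower in 1, and Wnt transducers and targets were higher in 8 of 12 cases and lower in 1. BMP antagonists were lower in 6 of 10 cases and higher in 2. Lef1, a partner of beta-catenin, had 156 and 134 CPM in endothelial cells, against 1.52 and 1.03 CPM in mural cells (6.85 ± 0.25), Smad6, an inhibitory SMAD induced by BMPs, 27.4 and 23.5 CPM against 1.02 and 1.54 CPM (4.34 ± 0.39) and Tcf7 13.1 and 14.2 CPM against 2.03 and 1.54 CPM (2.97 ± 0.43). Fzd6 had 462 UMIs against 1, a ratio of 228 with a counting interval of 40.8 to 9038.

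Lower in endothelial cells were Nkd1, with 1.73 and 1.55 CPM against 104 and 91.1 CPM in mural cells (-5.79 ± 0.23), Rgma, a BMP co-receptor, with 0.989 and 2.58 CPM against 45.2 and 43.7 CPM (-4.55 ± 0.29), and Bmp2, with 1.24 and 2.84 CPM against 48.3 and 39.1 CPM (-4.34 ± 0.29). Id1, chosen here after its values were seen, had 427 and 375 CPM in blood endothelial cells, above the 200.2 and 200.1 CPM of mural cells. It was found at 12.1 and 20.8 CPM in Rxfp1-rich neurons and at 15.7 and 7.82 CPM in Shox2-rich neurons. Id1 was thus high in both vessel classes and low in both neuron types, and the neuron levels of the other BMP targets are not set beside it.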

How the data were processed

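RNA was measured in 2 single-cell libraries of 1 group. The deposited values are raw counts of UMIs per gene and barcode, made by the submitters with Cell Ranger 6.1.2 on mm10, per the submitters' processing notes. Barcodes had to hold 500 genes, 1000 UMIs and less than 20% of UMIs from mitochondrial genes, and doublets were removed per library with the Scrublet method of scanpy 1.11.5. The UMIs of every cell were divided by chance (probability 0.5) into a part for clustering and naming and a part for levels and tests. Shares of cells with a UMI used all UMIs. Clustering used the log of counts per 10000, 3000 variable genes, 30 components, 15 neighbours and Leiden resolution 1 (leidenalg 0.10.2), and 0.8 for neurons, without the 10 genes and the 127 pathway genes. Clusters were named by marker lists. Neuron types were set by their Shox2 and Rxfp1 levels among the clusters not left out. Shox2 averaged 108 CPM in Shox2-rich and 5.11 CPM in Rxfp1-rich neurons, and Rxfp1 averaged 72.5 CPM and 333 CPM. Shox2 was not particular to the Shox2-rich type. In the part that set the classes it had 155 and 86.4 CPM there, and 98.4 and 135 CPM in the largest cluster kept apart. The 10 genes, the lists and the tests were chosen with earlier results of these data known.

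UMIs were summed per library and class and tested with edgeR 4.0.16 in R 4.3.3 (quasi-likelihood test, TMM scaling, filterByExpr, library as a block because both sums of a pair come from the same suspension) with Benjamini-Hochberg adjustment over all genes tested, at a threshold of 0.05. The block leaves 1 residual degree of freedom, so the spread was drawn largely or, in 5 of 7 fits, wholly from all genes. Tests were checked on simulated data. For the neuron types 54% of 2-fold and 99% of 4-fold changes were recovered, with 7 false calls. For interferon-high satellite glia 63% and 95% were recovered, with 6 false calls. DESeq2 1.42.0, other scalings and filters, all UMIs, cells with at least 5000 UMIs and fits without the block were alternatives. Intervals and floors (95%, exact Poisson, 3 counts) cover counting error only. Even spread means each cell's expected share given its UMIs. Gene positions are from GENCODE M21 on GRCm38, the assembly of mm10. Likeness used log2(CPM + 10) of genes with at least 50 UMIs. Named pathway genes were up to 4 each way of largest fold change that passed and had the same sign in both libraries, and others are said to be chosen later. Of the genes this rule gave, 1 is not reported here.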

Additional observations from a re-analysis of the deposited data

How the results depend on the processing

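Of the levels of the 10 genes in their highest classes, 40 values under alternatives moved by less than 1 SD between the libraries and 12 by more. In cells with at least 5000 UMIs, Sostdc1 in satellite glia was 726 CPM, Bmp5 in fibroblasts 137, Bmp6 in perineurial cells 110.3, Bmpr1a in mural cells 177 and Sfrp1 in non-myelinating Schwann cells 558 CPM. With all UMIs, Bmp5 was 137, Bmp6 107, Bmpr1a 174 and Bmpr1b in Shox2-rich neurons 553 CPM. With doublets kept, Bmp5 was 130.1, Bmp6 102 and Bmpr1a 166 CPM.

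DESeq2 called fewer genes. Between Rxfp1-rich and Shox2-rich neurons it called 150 higher and 108 lower, and of the pathway genes 0 higher and 1 lower. It called 3371 higher in typed neurons than in satellite glia. Between satellite glia and Schwann cells it called 644 and 539, with 10 and 7 pathway genes, between fibroblasts and mural cells 1871 and 1630, and between fibroblasts and perineurial cells 1708 and 1399, with 22 pathway genes higher. Between blood endothelial and mural cells it called 1860 and 1518, with 17 pathway genes lower, and between interferon-high and other satellite glia 254 and 65, with 0 and 2 pathway genes. All 258 DESeq2 calls between the neuron types were among those of edgeR.

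Without the replicate block, 3 pathway genes were higher in Rxfp1-rich neurons, 1279 genes were higher and 1186 lower in satellite glia than in Schwann cells, and 357 and 156 in interferon-high cells, with 1 and 2 pathway genes. With all UMIs, 6 pathway genes were lower in Rxfp1-rich neurons. Without the low-count filter, and in cells with at least 5000 UMIs, 1 pathway gene was higher in interferon-high cells. There the log2 fold change of Dkk3 was -0.11 and that of Bmpr1a 0.022 with all UMIs, neither past the threshold. The cause of these shifts was not tested.

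The named genes gave 60 tested pairs of a gene and a comparison, including those of the 10 genes tested in interferon-high cells. Of 355 values of these pairs, 327 kept their direction and side of the threshold. A further 25 lost the call, 12 of them with DESeq2, while 1 gained it and 2 changed direction. Calls were lost for Ror2 and Bmp3 between the neuron types, for Fzd6 between the glia, for Sfrp2 and Fzd9 with DESeq2, and in interferon-high cells for Fzd7, Fstl1, Smad7, Acvr2a and Tcf7l2. Genes that an alternative did not test or left without an adjusted p are not among the 355 values. Between the neuron types, DESeq2 did not call Lgr5, Dkk1, Trabd2b or Apcdd1 either. In interferon-high satellite glia, Sostdc1 lost its call with DESeq2 (0.16), without the filter (0.12) and without the block (0.16). It also lost it in cells with at least 5000 UMIs (0.13). Leaving out a library leaves no residual degrees of freedom and so no test. Keeping doublets and clustering at resolution 2 were not run for the neuron types. The typed neurons are few, so a gene with under 10 UMIs in them is known only by its counting interval.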

Other observations

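Neuron-like clusters outside the typed populations also held some of the 10 genes. The largest of them (393 and 360 cells) had 0 neuron markers and 3 satellite glia markers among its 50 leading genes, ranked against the other neuron-like cells. By this ranking the Shox2-rich cluster also had 0 neuron markers and the Rxfp1-rich cluster 1. In the part that set the classes, Th had 564 and 593 CPM in this largest cluster. The types had less, with 278 and 213 CPM in Rxfp1-rich and 381 and 243 CPM in Shox2-rich neurons. With a median of 1764 and 1825.5 UMIs and 4401 and 3841 CPM of Malat1, the largest cluster had 217 and 229 CPM of Dkk3 and 82.7 and 93.8 CPM of Sostdc1. The untyped neuron cluster (178 and 182 cells) had 152 and 182 CPM of Dkk3, 35.4 and 42.8 CPM of Dkk2 and 46.0 and 57.0 CPM of Bmp4. An unnamed cluster led by Kcnc4 (92 and 87 cells) had 573 and 486 CPM of Sostdc1, 329 and 364 CPM of Sfrp1 and 32.6 and 47.2 CPM of Vwc2, close to those of satellite glia.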
